A study of Homo sapiens with 3 samples.

Results

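PDE4A, PDE4B, PDE4C and PDE4D were followed in HepG2 cells, an established human hepatocellular carcinoma line, on 1-color Agilent arrays of RNA taken after 30 h of etoposide treatment. The 4 genes are all the array's gene names that equal a member of this family, out of 27274 gene names in all, and they were measured by 8 probes out of 34127. The family was chosen by measured values, since the high PDE4C signal at 10 μM was already known from these arrays, so its values are given as a description with no test. There were 3 conditions with 1 array each: cells labelled untreated (0 μM, the control), cells given 10 μM etoposide (low dose) and cells given 100 μM etoposide (high dose), all grown in the same serum-containing medium. The paper gives its array folds at both doses as ratios to DMSO. All the cells were of 1 line, whose cells carry wild-type p53, and no allele, knockdown or second agent was part of this array experiment. Since each condition is a single sample, the differences could not be checked against replicates and carry no p-value.

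PDE4 enzymes are cyclic nucleotide phosphodiesterases that break down cAMP and leave cGMP largely untouched. cAMP is made by adenylyl cyclases and acts through protein kinase A (PKA), the EPAC exchange factors and the POPDC proteins, and phosphodiesterases placed by anchoring proteins keep its signal short and local. Each PDE4 gene has several promoters that give long and short isoforms, and in the liver cAMP carries the glucagon signal to glucose production. Etoposide traps topoisomerase II on DNA, and the breaks that follow activate p53.

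The 3 probes below are shown as 1 detected probe for each of PDE4C, PDE4A and PDE4D. For PDE4A and PDE4D it is the dimmer of the 2 detected probes, whereas the ranks and the folds quoted for the gene come from the brighter one. Each has 60 bases, is given 5′ to 3′ in lower case, and starts within the first 2500 bases of its transcript. None has a part set in capitals.
PDE4C, probe A_33_P3759611, NM_000923, hg18 chr19:18182784-18182843, minus strand: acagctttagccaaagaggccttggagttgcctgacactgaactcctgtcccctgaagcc
PDE4A, probe A_33_P3395876, NM_001111307, hg18 chr19:10433615-10433674, plus strand: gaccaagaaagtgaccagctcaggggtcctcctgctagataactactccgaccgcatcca
PDE4D, probe A_33_P3389658, NM_001165899, hg18 chr5:58306311-58306370, minus strand: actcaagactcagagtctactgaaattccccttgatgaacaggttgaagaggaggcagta
The PDE4C probe is the only one for that gene, and the array's annotation lists 3 RefSeq mRNAs for it. PDE4A and PDE4C both lie on chromosome 19, on opposite strands. The G and C content was 55% for the PDE4C and PDE4A probes shown and 45% for the PDE4D probe. An annotation of hg18 was not used here, so whether a probe lies in coding or untranslated sequence is not stated.

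A probe counted as detected when the Feature Extraction software called it well above background, and the lowest such signal on an array is called the floor. The floor was a signal of 19.5 for control, 22.7 for 10 μM and 21.6 for 100 μM. Of the 8 probes of the family, 5 were well above background on all 3 arrays and 3 on none. The 5 represent PDE4A, PDE4C and PDE4D. Signals are background-subtracted intensities as deposited, whereas each fold is taken after dividing each array by its 75th percentile over probes, which was a signal of 514, 536 and 432 for control, 10 μM and 100 μM. A fold is therefore not the plain quotient of 2 signals, and the scaling raises the 100 μM array by comparison. The signal of one probe is not set against that of another, since probes bind with different strength. All 8 probes were single spots, so the error of each fold was taken from repeated probes of similar signal on the same arrays. It is given as 2 SD and covers spots, not cultures. The software's own error of each detected signal was larger than this spot SD, so the ranges may be too narrow.

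PDE4C had the largest difference in the family. Its processed signal was 29.6 in control cells, 450 at 10 μM etoposide and 285 at 100 μM. Both treated arrays were thus far above the control array, whose signal was close to the floor and had an error of 5.34 by the software's own estimate. At 10 μM it was 14.57-fold above control, with a range of 10.4- to 20.4-fold at 2 SD between spots. At 100 μM it was 11.45-fold above control, with a range of 8.16- to 16.1-fold. With normexp background correction the folds were 5.23 at 10 μM and 4.29 at 100 μM, outside these ranges. The signal at 10 μM was 1.27-fold that at 100 μM (1.15 to 1.41), or 1.58-fold without scaling between arrays. The software's own errors of these 2 signals were 45.3 and 28.9. They are larger than the spot SD behind this range (0.047 and 0.058 on the log2 scale), so whether the 2 doses differ is not settled. More RNA of this gene per cell and more cells that express it cannot be told apart in a measurement of whole cultures.

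Among the 15177 genes measured on all 3 arrays, PDE4C ranked number 6 from the top for 10 μM over control and number 4 for 100 μM over control. Only 4 of these genes were more than 10-fold higher at both doses, and PDE4C is 1 of them. The ratio of 10 μM to 100 μM was less extreme, at percentile 86.6 of the same genes. PDE4C thus stood at the upper end for either dose against control but not for one dose against the other. Both folds use the same control array, so they are not independent of each other. The ranks leave out genes not well above background in control cells. PDE6C, another phosphodiesterase gene, is 1 of these, with a fold of at least 17.7 at 10 μM. At this dose 121 of the ranked genes were more than 3-fold higher than control, against 215 of all 16659 genes compared. The ranks and the count past 10-fold are not given for normexp, where the PDE4C folds were 5.23 and 4.29.

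**Figure D1:**
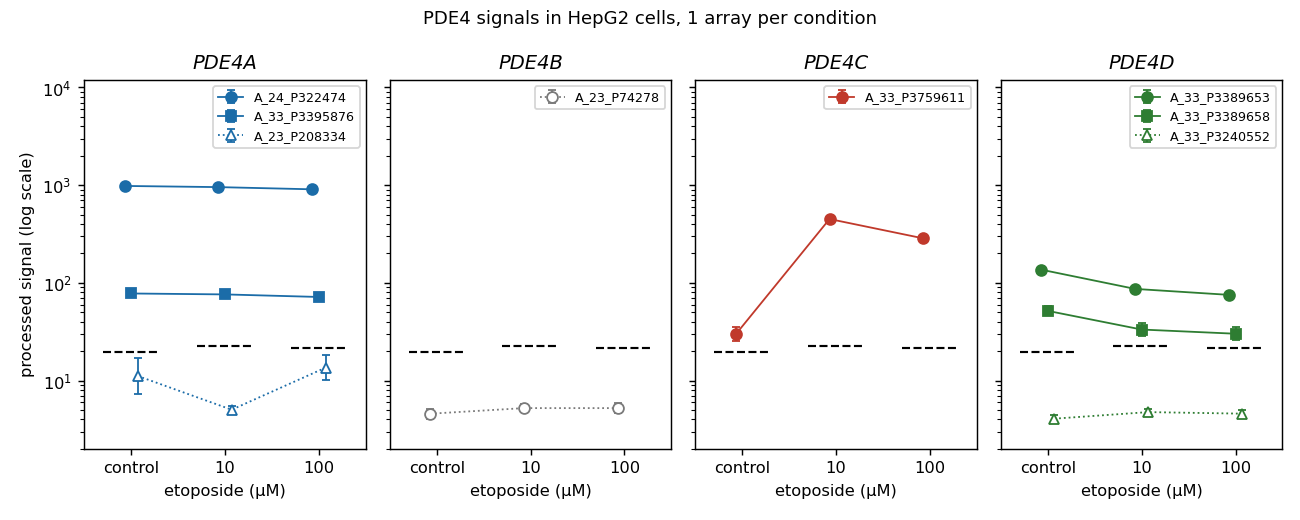
Processed signal (vertical axis, log scale) of the 8 PDE4 probes in control cells and at 10 and 100 μM etoposide, 1 array each, with bars of 1 SD between spots of repeated probes. Filled symbols mark probes well above background on all arrays, open symbols mark probes so on none, and dashed lines mark the floor of each array. The PDE4C signal moved from 29.6 to 450 and 285, whereas the 2 detected PDE4A probes moved little (982 to 906 and 77.8 to 71.7) and the 2 detected PDE4D probes were lower in treated cells (136 to 75.3 and 51.6 to 30.1).

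PDE4A was detected at a level that differed little between the conditions. Its brightest probe, A_24_P322474 (hg18 chr19:10441226-10441285), had signals of 982 in control cells, 955 at 10 μM and 906 at 100 μM. Its ratio to control was 0.93 at 10 μM (0.849 to 1.02) and 1.10 at 100 μM (0.997 to 1.21), so both ranges hold a ratio of 1. The ratio of 10 μM to 100 μM was 0.85 (0.775 to 0.930), or 1.05 without scaling. This range leaves out the software's own errors of the 2 signals, 95.6 and 90.8. The second probe, shown above, had signals of 77.8, 76.1 and 71.7, and ratios of 0.94 and 1.10. The 2 probes thus gave the same picture. The sign of the 100 μM ratio rests on the scaling, since the ratio was 0.92 with no scaling, 0.90 with scaling to the median and 0.98 with scaling to spike-in controls. The third PDE4A probe, A_23_P208334 (hg18 chr19:10438818-10438877), had signals of 11.1, 5.03 and 13.5, all under the floor of their arrays, and has no fold.

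PDE4D, the member with the largest gene, had lower signals in treated than in control cells at both of its detected probes. The brighter probe, A_33_P3389653 (hg18 chr5:58300684-58300743), had signals of 136 in control cells, 86.7 at 10 μM and 75.3 at 100 μM. It was 1.64-fold lower than control at 10 μM (1.39 to 1.95) and 1.52-fold lower at 100 μM (1.27 to 1.83). The dimmer probe, shown above, had signals of 51.6, 33.3 and 30.1. It was 1.62-fold lower at 10 μM (1.12 to 2.35) and 1.44-fold lower at 100 μM (0.991 to 2.10). At the dimmer probe the range for 100 μM holds no difference. With normexp background correction the ratios of the brighter probe to control were 0.76 at 10 μM and 0.85 at 100 μM. Both are smaller decreases than its ranges above hold. The 2 doses were close to each other at the brighter probe, with a ratio of 10 μM to 100 μM of 0.93 (0.769 to 1.12).

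These PDE4D differences were modest next to the PDE4C difference. Among genes measured on all arrays, PDE4D stood at percentile 3.16 for 10 μM over control and 8.85 for 100 μM over control. The third PDE4D probe, A_33_P3240552, was designed on the transcript AK307363 and lies upstream of the others in the gene (hg18 chr5:59319791-59319850). Its signals were 4.07, 4.75 and 4.58, well under the floor, so no fold is given.

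PDE4B, the member best known from inflammatory cells, was not detected. Its only probe, A_23_P74278 (hg18 chr1:66612377-66612436), had signals of 4.57 in control cells and 5.22 at both doses, none well above background. A low level of PDE4B under the floor was not detectable on these arrays.

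Of the 3 detected members, 1 was more than 3-fold higher at 10 μM, and 1 at 100 μM, in both cases PDE4C. Over all genes compared, 215 of 16659 (1.29%) were more than 3-fold higher at 10 μM and 313 of 16771 (1.87%) at 100 μM. None of the 3 was more than 3-fold lower, against 0.36% of all genes at 10 μM and 1.66% at 100 μM. As the family was chosen for PDE4C, nothing is read from the share of members.

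**Figure D2:**
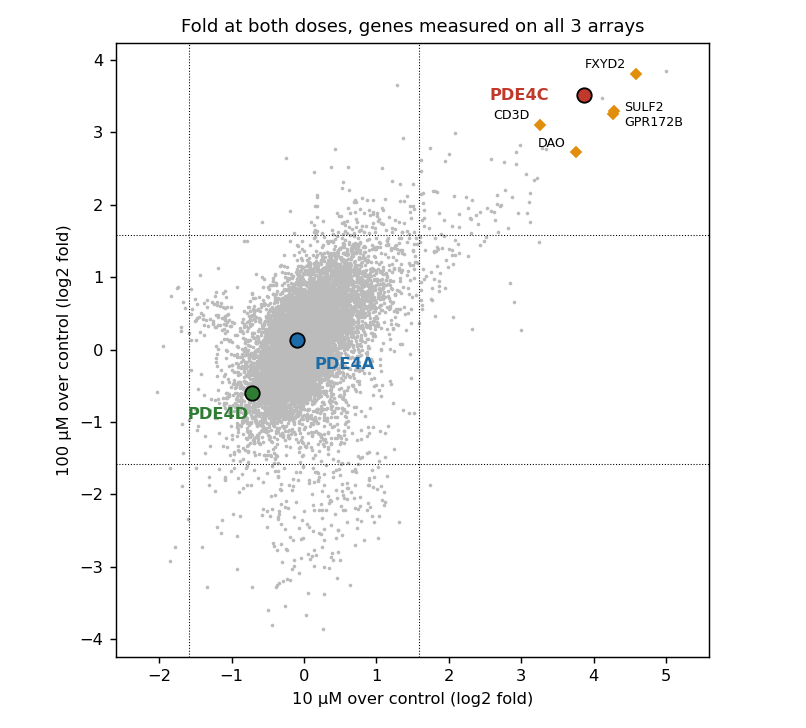
Log2 fold over control at 10 μM (horizontal) and 100 μM etoposide (vertical) for the 15177 genes measured on all 3 arrays (grey), with dotted lines at 3-fold. PDE4C lies at 3.86 and 3.52 in the upper right. Orange marks the 5 genes with a RefSeq mRNA whose pair of values was most similar to that of PDE4C. An array entry without a gene symbol, A_32_P52153, lies nearer, at 4.11 and 3.48, and is grey. PDE4A at -0.10 and 0.14 and PDE4D at -0.72 and -0.61 lie within the main cloud.

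The treatment was checked with 2 p53 targets. CDKN1A, which encodes the cell cycle inhibitor p21, was 7.94-fold higher than control at 10 μM and 7.07-fold higher at 100 μM. MDM2, which encodes the ubiquitin ligase that limits p53, was 7.03-fold and 3.19-fold higher. All 9 hepatocyte lineage markers examined, ALB and AFP among them, were well above background on all arrays, and none of 4 fibroblast markers was so on any. HNF4A, the hepatocyte lineage marker with the lowest control signal, had signals of 50.7, 30.4 and 53.7. The leukocyte markers CD3E, CD14 and PTPRC were well above background on all arrays. CD3E had signals of 46.8, 34.6 and 52.9, CD14 521, 1184 and 1847, and PTPRC 257, 131 and 288. The 2 neuron markers found, SYT1 and SNAP25, had signals from 33.2 to 79.5. The labels name HepG2 cells only, and what these marker signals come from was not tested.

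The genes whose pair of folds lay nearest to that of PDE4C were sought among 12045 others with a RefSeq mRNA and signals well above background on all arrays. Nearness was the Euclidean distance between the pairs of log2 folds, over 3 arrays. The nearest of these was SULF2, an extracellular heparan sulfate sulfatase, at a distance of 0.47. Its folds over control were 19.4 and 9.78. GPR172B, the array's name for the riboflavin transporter gene SLC52A1, followed at 0.479 with 19.3-fold and 9.57-fold. CD3D, a chain of the T cell receptor complex, lay at 0.728 with 9.61-fold and 8.61-fold. FXYD2, a regulator of the sodium pump, lay at 0.783 and DAO, D-amino acid oxidase, at 0.798. Control signals were 22.0 for GPR172B and 30.0 for FXYD2, close to the floor like that of PDE4C. Their folds thus also depend on the background. The control signals of SULF2, CD3D and DAO were 255, 187 and 67.9. The ratio of 10 μM to 100 μM was close to 2 for SULF2 (1.98), GPR172B (2.01) and DAO (2.05), 1.72 for FXYD2 and 1.12 for CD3D. For PDE4C it was 1.27, so CD3D was the nearest of the 5 in this ratio.

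The rest of the phosphodiesterase superfamily was read from the same arrays. Together with PDE4, 24 genes with phosphodiesterase names were considered, not all of them catalytic. Of these, 10 were measured on all 3 arrays, 3 on 1 or 2 arrays and 11 on none. Of the 10, PDE4C, for which the family was chosen, was the only one more than 3-fold higher than control, at either dose. Of all 15177 genes measured on all 3 arrays, 121 were so at 10 μM and 175 at 100 μM. PDE6C, also past 3-fold, is not among the 10, as its control signal was not well above background. Medians of a list are given over its genes measured on all 3 arrays, a choice made after the data were seen, and were -0.03 and 0.08 over all such genes for the log2 fold at 10 μM and 100 μM. For the other cAMP-hydrolysing members they were -0.41 and -0.47 (5 of 12 genes). Where no gene of a list passed 3-fold, the gene whose probe had the highest control signal is named, which orders probes and not the levels of genes. Among the other cAMP-hydrolysing members this was PDE11A, a phosphodiesterase of both cyclic nucleotides. Its signals were 871, 555 and 529, and its ratios to control 0.61 and 0.72, close to those of PDE4D.

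PDE6C, the catalytic subunit of the cone photoreceptor phosphodiesterase, belongs to the cGMP-specific members. Its signals were 18.3 in control cells, where it was not well above background, 361 at 10 μM and 76.1 at 100 μM. Its fold over control was at least 17.7 at 10 μM and at least 4.64 at 100 μM. PDE6C and PDE4C were thus both high at 10 μM, but the ratio of 10 μM to 100 μM was 3.83 for PDE6C. With normexp background correction the fold of PDE6C at 100 μM was under 3-fold. Of the 8 genes listed as cGMP-specific, the 2 measured on all arrays were PDE6D and PDE6G. Neither encodes a catalytic subunit, and neither was more than 3-fold from control.

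Upstream of cAMP, no gene of the lists passed 3-fold. Of 10 adenylyl cyclases 5 were measured on all arrays, with medians of 0.24 and 0.28 on the log2 scale. ADCY9 had signals of 1479, 1522 and 1507 and ratios to control of 0.99 and 1.21. Of 7 G protein alpha genes, stimulatory and inhibitory classes together, 6 were measured on all arrays, with medians of 0.15 and 0.07. GNAS, which encodes the stimulatory alpha subunit, had signals of 39035, 44906 and 35404, and ratios of 1.10 and 1.08. None of the adenylyl cyclases and G protein alpha genes that could be compared was past 2-fold from control.

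Among the receivers of cAMP, 1 gene passed 3-fold. POPDC2, a membrane protein that binds cAMP, had signals of 19.3, 47.0 and 67.7 in the order control, 10 μM and 100 μM, the first of them not well above background. Its fold over control was at least 2.31 at 10 μM and at least 4.12 at 100 μM. A second POPDC2 probe was well above background on no array, and with normexp the 100 μM fold was under 3-fold. Of the 5 genes of the EPAC and POPDC list, 1 was measured on all arrays, so no median is given. Of the 11 PKA subunits and inhibitors 8 were measured on all arrays, with medians of -0.20 and 0.25 and none past 3-fold. PRKAR1A, a regulatory subunit, had signals of 2474, 2177 and 2532 and ratios of 0.84 and 1.22. ABCC4, a pump that exports cAMP, had signals of 66.6, 44.5 and 38.1 and ratios of 0.64 and 0.68.

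The proteins that bind or place PDE4 did not pass 3-fold. Of the 13 partners 11 were measured on all arrays, with medians of -0.12 at both doses. RACK1, a scaffold that binds PDE4D, had signals of 41159, 37756 and 26484 and ratios of 0.88 and 0.77. Among the 10 other A-kinase anchors, AKAP8 had signals of 2115, 2014 and 1719 and ratios of 0.91 and 0.97. The medians of the anchors were -0.07 at 10 μM and -0.05 at 100 μM (6 genes).

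The genes of the CREB lists, which act downstream of PKA in the nucleus, did not pass 3-fold either. The RNA level of CREB family members and coactivators is not a reading of PKA activity, which was not measured. All 8 CREB family members and coactivators were measured on all arrays, with medians of -0.09 and -0.20. CRTC2, the coactivator of glucose production genes in liver, had signals of 1635, 1593 and 1624 and ratios of 0.93 and 1.18. Of 14 CREB targets 8 were measured on all arrays, with medians of 0.04 and 0.29. SIK1, a kinase induced by cAMP, had signals of 959, 1143 and 650 and ratios of 1.14 and 0.81. The classical liver targets PCK1 and G6PC1 were well above background on no array, so these cells give no reading of them.

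Over the 99 genes of the 11 lists, which hold no PDE4 gene, 66 could be compared at 10 μM and 69 at 100 μM. At 10 μM 1 was more than 3-fold higher and 0 more than 3-fold lower, and at 100 μM 2 and 0. Over all genes the shares were 1.29% and 0.36% at 10 μM and 1.87% and 1.66% at 100 μM, so the lists lay near the background. Past 2-fold there were 2 genes at 10 μM and 4 at 100 μM, all higher, among them PDE6G (2.44-fold) and PDE8B (at least 2.60-fold). Over all genes 3.39% were more than 2-fold higher and 1.58% lower at 10 μM, and 6.83% higher and 3.68% lower at 100 μM.

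**Figure D3:**
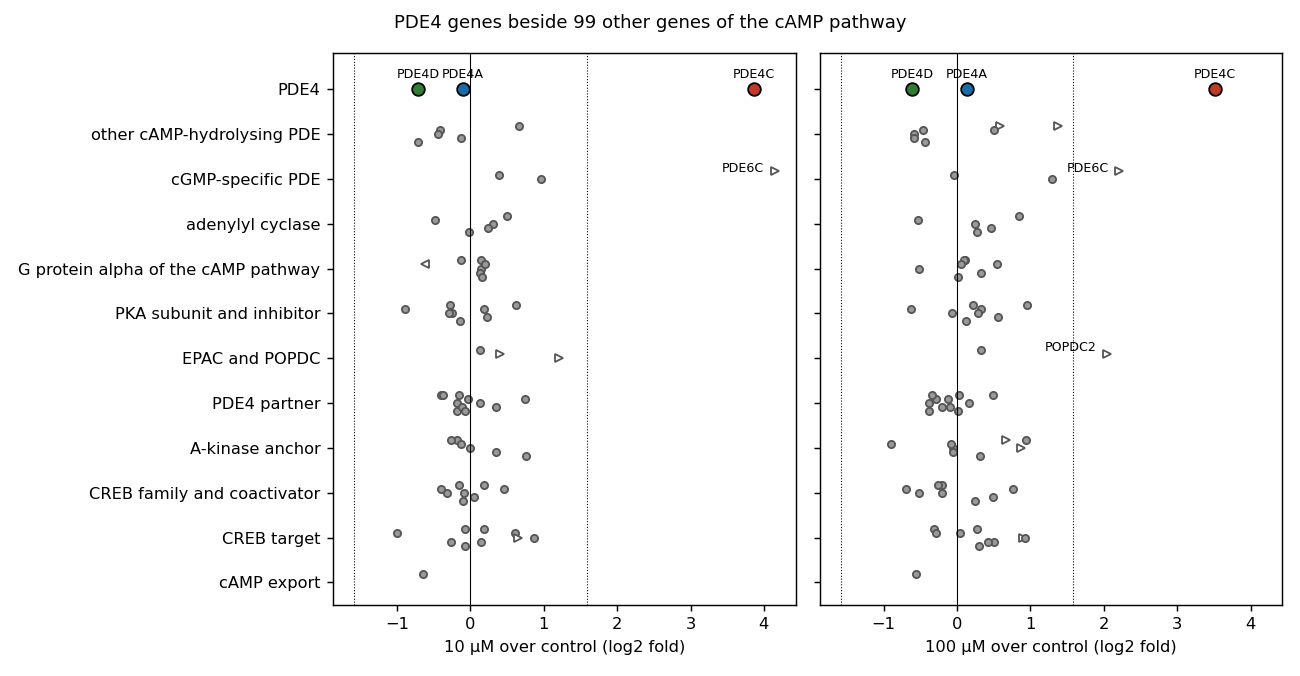
Log2 fold over control at 10 μM (left) and 100 μM etoposide (right) for the detected PDE4 genes and for the genes of 11 cAMP pathway lists that could be compared, 1 point per gene, with dotted lines at 3-fold. Open triangles mark bounds, where one side was not well above background. PDE4C, PDE6C and, at 100 μM, POPDC2 lie past 3-fold.

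The promoter of PDE4C is shown because p53 is the transcription factor that the study follows. RefSeq (GRCh38.p14) gives 23 windows of 300 bases for the 4 genes, each from 250 bases before a transcript start to 50 after it: 5 for PDE4A, 6 for PDE4B, 4 for PDE4C and 8 for PDE4D. They were searched for the p53 half-site, a motif that reads the same on both strands, and for the cAMP response element (CRE), TGACGTCA. Both motifs were chosen after the sequences had been seen, and neither motif overlaps a match of the other here. A match is a description of letters and not evidence of binding. The window with the most half-sites is given below on its own strand, with the half-sites in capitals.
PDE4C, GRCh38.p14 chr19:18224444-18224743, minus strand: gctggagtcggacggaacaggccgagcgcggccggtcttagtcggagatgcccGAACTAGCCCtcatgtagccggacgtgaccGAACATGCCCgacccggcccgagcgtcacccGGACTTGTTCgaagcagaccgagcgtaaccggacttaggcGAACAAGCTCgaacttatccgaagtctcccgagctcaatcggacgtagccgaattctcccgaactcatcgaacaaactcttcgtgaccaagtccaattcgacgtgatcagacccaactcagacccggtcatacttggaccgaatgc

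This window holds 4 half-sites, which begin 197, 167, 136 and 96 bases before the start. It is the only one of 35116 windows of all genes with 4 or more (0.00285%), while 6.63% hold at least 1 and 0.308% at least 2. The window was picked for its count, so this rarity is a description only. Similar short stretches recur along the window, so its half-sites may not be independent of each other. No pair in it lies within 13 bases, the largest gap searched for a full site, and 0.0285% of all windows hold such a pair. It is 1 of 4 windows of PDE4C, and which start was in use in these cells was not measured by the probe. A second PDE4C window holds 1 half-site and a PDE4D window 1, whereas none of the 11 windows of PDE4A and PDE4B holds any. A CRE occurs in 1 PDE4A window only, against 1.85% of all windows.

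**Figure D4:**
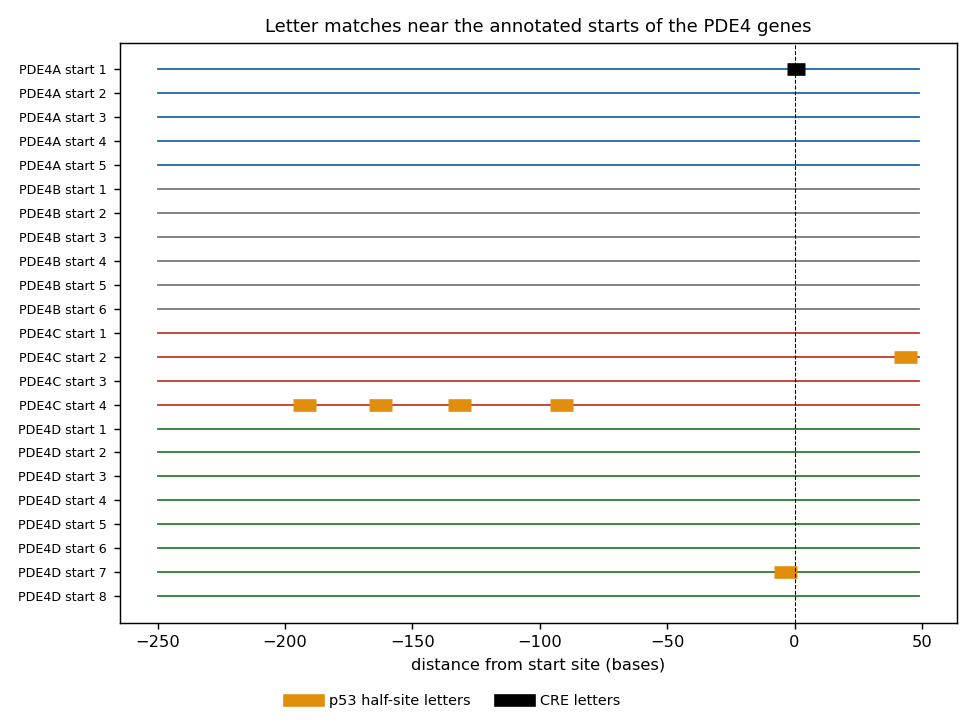
Positions of p53 half-site letters (orange) and CRE letters (black) in the 23 RefSeq windows of the PDE4 genes, by distance from the transcript start in bases (horizontal axis, dashed line at the start). One PDE4C window carries 4 half-sites that begin 197 to 96 bases before the start, and most windows carry no match.

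The folds of the 3 detected members were also computed under 11 other ways of processing the signals. Among these, the deposited series table and the absence of a floor could not change any of the 3. The mean of detected probes could not change PDE4C, which has a single probe. The PDE4C log2 fold ranged from 2.39 to 3.93 at 10 μM and from 2.10 to 3.58 at 100 μM. That of PDE4D was below 0 under each of the 11, and nearest to no difference with normexp, at -0.40 and -0.24.

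**Figure D5:**
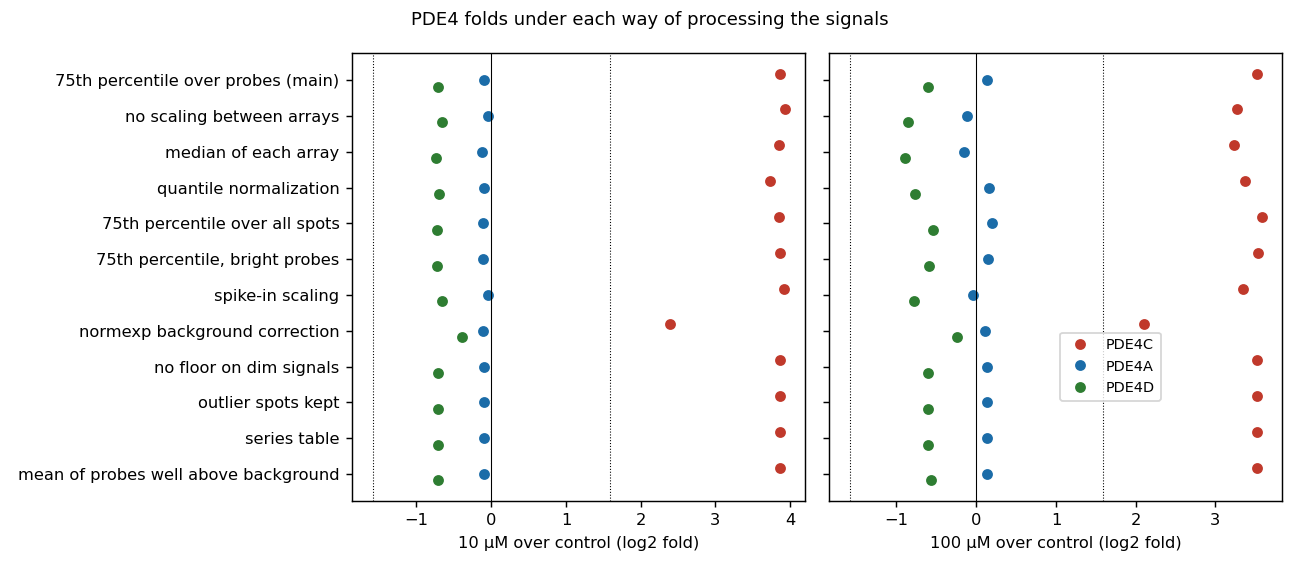
Log2 fold over control of PDE4C, PDE4A and PDE4D (brightest probe, or the mean of detected probes in the last line) at 10 μM (left) and 100 μM etoposide (right) under each processing of the signals, with dotted lines at 3-fold. PDE4C stays past 3-fold under every setting shown, lowest with normexp background correction at 2.39 and 2.10.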

How the data were processed

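HepG2 RNA was labeled with Cy3 and hybridized to 1-color arrays, 1 per condition, all on 1 slide. The authors deposited the intensity of each spot from Agilent Feature Extraction (version 10.7.3.1 in the submitters' processing notes), background-subtracted and not scaled between arrays, and a series table equal to it at all 44495 spots (relative tolerance 1e-06). Probes well above background numbered 20109, 19836 and 20150, and 0 spots were saturated. The 7 spike-in controls differed by 0.01 (low dose) and -0.08 (high dose) from control on the log2 scale, and the 75th percentile by 0.06 and -0.25.

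From the intensity, log2 values were averaged over spots without outliers, and the array's 75th percentile over probes was subtracted. 9 cases of a probe with outlier spots only on an array were left out. Dim signals were raised to the floor, the brightest probe stood for a gene, and more than 3-fold with the brighter side above background was the call. The spot SD came from the 50 nearest probes with at least 5 spots. No test between conditions is possible. The members and gene lists were chosen with earlier results of these data known. Named list genes are those past 3-fold or, where none was, the one with the highest control signal. PDE6G, PDE8B, PCK1 and G6PC1 were chosen after their values were seen. All 99 list genes were found on the array, partly through RefSeq synonyms. Calls were tested on simulated data. Normexp was run with limma 3.58.1 (R 4.3.3), and everything else in Python 3.11.15 with scipy 1.17.1, numpy 2.4.6 and pandas 2.3.3. One leukocyte marker of the list is not reported here.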

Additional observations from a re-analysis of the deposited data

How the results depend on the processing

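The number of arrays limits the precision: with 1 per condition, the spread between cultures was not measured. PDE4C was dim in control cells, so its fold depends on the background. The alternatives were other scalings, normexp, no floor, outlier spots kept, the series table, the mean of detected probes, other filters and a 2-fold threshold. PDE4C stayed above 3-fold at both doses, with 10 μM above 100 μM, under all 11 alternatives run for it. Not all of these could change it: the series table equals the deposited signals, the floor does not touch a detected probe, and PDE4C has a single probe to average.

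With normexp, which adds an offset of 50 and thereby shrinks folds of dim probes, its log2 fold was 2.39 at the low dose (against 3.86) and 2.10 at the high dose (against 3.52). The high-dose log2 fold was 3.27 with no scaling and 3.23 with median scaling (9.63- and 9.37-fold). The log2 ratio of low to high dose (0.35) was 0.66 with no scaling, 0.61 with median scaling and 0.57 with spike-in scaling. These scalings move the median of all genes for low over high dose from -0.09 to 0.22, 0.18 and 0.13. PDE4A and PDE4D folds stayed within the spot SD in 49 of 66 cases, which include the series table and no floor, where they could not change. PDE4D was lower than control in all of its own at both doses, least so with normexp (log2 fold -0.40 and -0.24). PDE4B has no fold under any setting.

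Of the pathway genes past 3-fold (1 at the low dose, 2 at the high dose), 0 and 0 were left with probes above background on all arrays. There were 2 and 4 at 2-fold, and 0 at the high dose with normexp. No paired analysis was possible because there was a single array for every condition.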
